A study of Rattus norvegicus with 72 samples.

Results

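Lysosome and autophagy genes were followed in primary rat hepatocytes exposed to 8 compounds for 24 h and 72 h. The list held 35 genes, chosen by symbol: 10 proteases, 7 other hydrolases with an activator, 7 genes of the lysosomal membrane and of lipid and ion transport, 4 proton pump subunits, 6 autophagy genes and the nutrient sensing gene Rragd. The array had probe sets under 33 of these symbols, 51 of its 31099 probe sets and 33 of its 14217 named genes. Of these, 45 probe sets of 32 genes were bright enough to be tested, and each gene is described by its brightest tested probe set. Ctsk, a cathepsin gene, was measured but too dim to test, Npc1 was not analysed here, and the one probe set of Map1lc3b also names Map1lc3b2 and was not used.

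The lysosome is the acid compartment in which cells break down proteins, lipids and sugars. Its hydrolases work at the low pH that a proton pump, the V-ATPase, keeps up, and its membrane holds transporters and heavily glycosylated structural proteins. Autophagy wraps worn parts of the cytoplasm in a membrane and delivers them there. In mouse and human cells many of these genes are switched on together by TFEB and its relatives of the MITF family, which mTORC1, a kinase that sits on the lysosome and senses nutrients, holds in check. Hepatocytes are rich in lysosomes, and lipophilic weak bases are known to collect in them.

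The cells were cultured as a monolayer after collagenase digestion of rat liver, in serum-free medium with hydrocortisone and insulin from before the exposures on, and RNA was collected at 24 h or 72 h; each of the 24 groups had 3 arrays. Clonidine hydrochloride (277 µM, an α2-adrenergic agonist) and nifedipine (156 µM, a calcium channel blocker) are the study's non-carcinogens. Aflatoxin B1 (19 nM), NNK (625 µM, a nitrosamine of tobacco) and 2-nitrofluorene (78 µM) are its genotoxic carcinogens, and Wy-14643 (250 µM), piperonyl butoxide (13.4 µM) and methapyrilene, also a hydrochloride by the labels (8.5 µM), its non-genotoxic ones. Clonidine, aflatoxin B1 and Wy-14643 were set against 1 control group per time, nifedipine, 2-nitrofluorene and piperonyl butoxide against another, and NNK and methapyrilene each against a control of their own. Comparisons with the same control share its chance values. What the control cells were given in place of a compound is not stated in the labels.

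Readings are linear MAS5 intensities of the array, which have no physical unit, and those under a floor of 3.117 were raised to it before log2 changes were taken. Array medians ran from 15.76 to 23.8. None of 14 measured hepatocyte markers was at the floor throughout any group. The same held for 18 macrophage markers, so this does not tell cell types apart, and the cell type is that of the labels. Beta-actin 3′ over 5′ signal, a measure of RNA degradation, was high on 10 arrays, all in the set of clonidine, aflatoxin B1 and Wy-14643. They were its 8 arrays of D number 3 (replicate 3 of each group; the labels do not say what the D number stands for), and, of the aflatoxin B1 arrays, the first replicate of 24 h and the second of 72 h. A culture time score built from 3937 probe sets rose between 24 h and 72 h by 0.691 ± 0.238 (SD) over 23 pairs of arrays, but ran the other way in the 4 pairs of D number 3 (−0.500 ± 0.129). Exposure times of these 8 arrays are those of the labels, and for the genes and medians described below that moved with them, values without them are given beside the others.

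TFEB and its relatives read short letters in DNA, above all CACGTG, the E-box, which is its own reverse complement, and CATGTG with its reverse complement CACATG, the core of the M-box of MITF. RefSeq promoters on GRCr8, from 250 bases before to 50 after each gene's start, were found for 27 of the listed genes. Gpnmb, Scarb2 and Neu1 are printed as examples of genes that hold the second motif and whose differences are described below. Tpp1, Atp6v1a and Gusb hold it and are described too, but are not printed. Lamp1 is printed because it holds 5 copies of the first. Each printed sequence runs 5′ to 3′ along the gene's strand, with motif letters in capitals.
Gpnmb, chr4:79340878-79341177, plus strand: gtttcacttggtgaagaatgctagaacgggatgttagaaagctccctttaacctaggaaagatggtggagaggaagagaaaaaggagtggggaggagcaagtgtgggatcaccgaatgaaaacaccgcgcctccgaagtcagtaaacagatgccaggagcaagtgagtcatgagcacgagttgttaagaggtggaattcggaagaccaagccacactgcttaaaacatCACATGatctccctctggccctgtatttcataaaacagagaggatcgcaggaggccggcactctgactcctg
Scarb2, chr14:15842333-15842632, plus strand: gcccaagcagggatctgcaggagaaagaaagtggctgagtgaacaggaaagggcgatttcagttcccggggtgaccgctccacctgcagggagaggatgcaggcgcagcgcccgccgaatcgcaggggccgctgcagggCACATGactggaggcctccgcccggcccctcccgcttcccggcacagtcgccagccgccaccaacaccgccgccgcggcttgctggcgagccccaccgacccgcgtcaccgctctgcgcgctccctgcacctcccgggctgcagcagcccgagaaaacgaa
Neu1, chr20:3906334-3906633, minus strand: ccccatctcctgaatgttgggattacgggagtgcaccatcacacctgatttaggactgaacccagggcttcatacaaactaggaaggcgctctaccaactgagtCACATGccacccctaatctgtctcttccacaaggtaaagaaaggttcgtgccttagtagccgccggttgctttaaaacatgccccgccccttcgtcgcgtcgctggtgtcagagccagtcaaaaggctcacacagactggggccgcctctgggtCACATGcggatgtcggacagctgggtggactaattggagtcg
Lamp1, chr16:83075014-83075313, minus strand: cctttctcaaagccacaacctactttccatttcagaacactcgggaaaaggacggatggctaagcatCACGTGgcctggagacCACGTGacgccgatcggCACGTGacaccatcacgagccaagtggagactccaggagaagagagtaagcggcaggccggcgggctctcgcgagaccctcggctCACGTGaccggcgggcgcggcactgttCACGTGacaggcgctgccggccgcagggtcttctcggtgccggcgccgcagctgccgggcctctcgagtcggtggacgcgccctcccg
The E-box was in 6 of 27 promoters (Atg5, Atp6v0d1, Ctsd, Glb1, Lamp1 and Mcoln1), and in 6.42% of all 33469 promoters of the same length. The letters CATGTG on either strand were in 7 of 27 (Atp6v1a, Ctsk, Gpnmb, Gusb, Neu1, Scarb2 and Tpp1), and in 14.0% of all. The longer CLEAR element, which contains the E-box, was in 0 of 27 and 0.233% of all. Of other motifs searched on both strands, TGACNNNGC, the core read by the oxidative stress factor NRF2, was in 10 of 27 and 12.1% of all, and the PPARα element in 0 and 0.415%. These matches are letters in a window and were not measured for binding.

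Few of the 32 genes passed the test against their own control in any comparison, where passing means an adjusted p under 0.05 by limma with Benjamini-Hochberg adjustment over the 18048 tested probe sets. The test used all arrays without pairing. Arrays of the same D number deviated together in 14 of the 16 comparisons, all but both of aflatoxin B1, so the fit with the D number as a replicate block is given beside a count or call that it changes. Rragd reached the brightness limit in 2 of the 24 groups, both of clonidine, and was tested only through them, so its clonidine values are given as a description. Clonidine gave 0 rises and 0 falls at 24 h, when 0.0111% of all probe sets rose and 0.00554% fell, and 2 rises with the block (0.515% of all), of which 1 was Rragd. At 72 h 1 gene rose after clonidine (0.0332% of all), and 2 with the block (0.404%), again 1 of them Rragd. Nifedipine gave 0 and 0 at 24 h (0.271% and 0.188% of all) and 1 fall with the block (2.86%). Nor did any gene pass at 72 h of nifedipine (0 and 0, beside 1.35% and 1.83% of all), although with the block 4 rose (4.95%) and 1 fell (10.2%). Unadjusted p-values under 0.05 numbered 9 and 6 for clonidine at 24 h and 72 h, and 3 and 6 for nifedipine. The clonidine numbers include Rragd both times. The share of all probe sets with such a p is not given, here or below, so these numbers cannot be set against it.

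After aflatoxin B1 4 genes rose and 0 fell at 24 h (1.8% and 1.53% of all), and 3 rose and 1 fell at 72 h (2.78% and 2.13%). With only the arrays of its set 0 genes were called at either time, in a fit whose share of all probe sets is not given. Leaving out the high actin arrays keeps 1 aflatoxin B1 array and 2 control arrays per time. The lone array is then taken to vary like the other groups, so no count is given for that fit. 2-Nitrofluorene lowered 1 gene at 24 h (0.338% of all) and raised 0 (0.792%), or 2 raised and 2 lowered with the block (3.04% and 4.21%). Its 72 h counts were 0 and 0 (0.698% and 0.111%), with 2 falls under the block (2.55%). NNK gave 0 and 0 at both times (0.421% and 0.499% of all at 24 h, 1.67% and 1.65% at 72 h), and 4 rises at 72 h with the block (5.65%). Wy-14643 gave 0 and 0 at 24 h (0.0443% and 0.0%), with 1 rise and 1 fall under the block (2.02% and 1.96%), and 1 rise at 72 h (2.82%, with 4.49% falling), or 4 rises and 1 fall with the block (8.47% and 12.7%). Piperonyl butoxide gave 0 and 0 at 24 h (0.0887% and 0.0%) and at 72 h (0.0% and 0.0%), with 1 rise at 24 h under the block (0.493%). Methapyrilene gave 0 in either direction at both times, as did all probe sets (0.0%). Among the comparisons with no call, unadjusted p-values under 0.05 numbered 7 for Wy-14643 at 24 h, 1 for 2-nitrofluorene at 72 h, 0 and 4 for NNK at 24 h and 72 h, 1 and 0 for piperonyl butoxide, and 1 and 0 for methapyrilene.

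After clonidine 27 and 26 of the 32 genes were above 0 at 24 h and 72 h. The median log2 change over all 32 was 0.20 at 24 h and 0.22 at 72 h, beside −0.02 and 0.01 over all tested probe sets. Without the D number 3 arrays it was 0.09 at 24 h (−0.01 over all, 21 above 0) and 0.22 at 72 h (0.01 over all, 27 above 0). With nifedipine it was 0.02 at 24 h (−0.02 over all, 17 above 0) and 0.15 at 72 h (−0.07 over all, 24 above 0). Every clonidine array was above every control array for 6 genes at 24 h (3.78% of all probe sets) and 8 at 72 h (3.67%), and below it for 0 (4.37%) and 1 (3.88%). Rragd, tested only through its clonidine groups, is among the 6 and the 8, and among the genes above 0 after clonidine. For nifedipine such genes numbered 6 above and 4 below at 24 h (8.06% and 10.4% of all), and 8 above and 2 below at 72 h (13.6% and 20.2%). In the other 12 comparisons the list's median lay between −0.11 and 0.14, and the 0.14 was that of aflatoxin B1 at 24 h, or 0.03 without the D number 3 arrays.

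**Figure D1:**
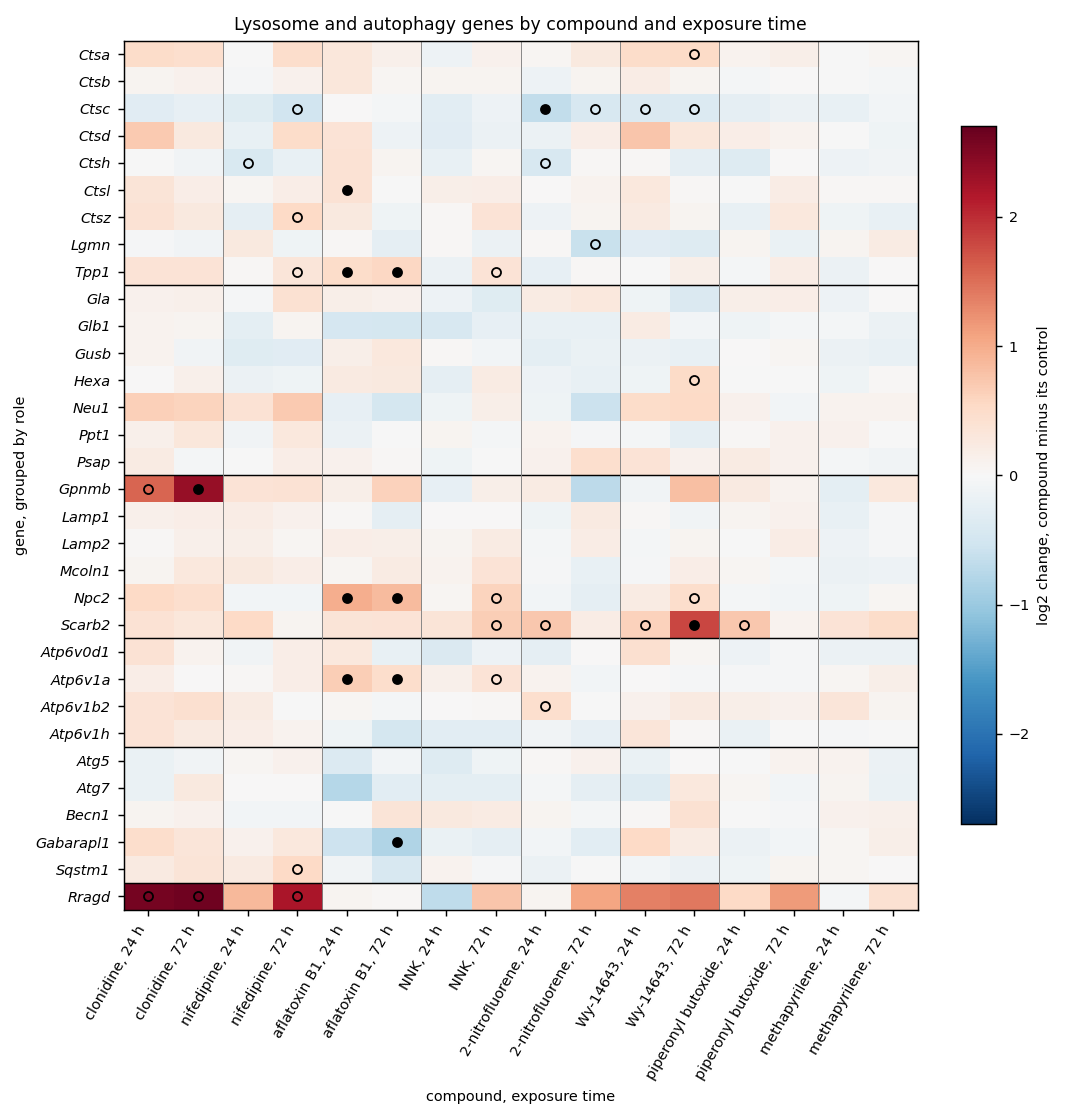
Log2 change of 32 lysosome and autophagy genes (rows, grouped by role) after each compound against its own control at 24 h and 72 h (columns). Red is higher and blue lower in exposed cells, filled dots mark genes that passed limma's test at an adjusted p under 0.05, and open circles those that passed only with the replicate block (not drawn for aflatoxin B1, whose D numbers did not pair). Gpnmb is dark red after 72 h of clonidine (2.36) and Scarb2 after 72 h of Wy-14643 (1.80), and Rragd was tested only because it was bright enough after clonidine (2.62 at 72 h).

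Gpnmb encodes a glycoprotein of lysosome and melanosome membranes that is raised in mouse macrophages with loaded lysosomes. After 72 h of clonidine it read 1094, 1002 and 559 in exposed cells, against 245, 150.2 and 123 in control cells. All exposed arrays were above all control arrays, and Gpnmb rose 5.14-fold, a log2 change of 2.36 ± 0.39 (± SE, here and throughout; n = 3 and 3, adjusted p = 0.00232 by limma). The change per pair of equal D number was 2.16, 2.74 and 2.19. It stayed called without the D number 3 arrays (2.45, adjusted p = 0.00321) and with each array left out (2.15 to 2.66), but not when only this set's arrays were fitted, which gave the same change with an adjusted p of 0.965.

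At 24 h of clonidine Gpnmb read 446, 495 and 1319, against 216, 311 and 162 in control cells. Again no arrays overlapped, and replicate 3 was far above the other exposed arrays. The log2 change was 1.58 ± 0.39 (adjusted p = 0.231), with 0.00618 under the block. Without the D number 3 arrays it was 0.86 (adjusted p = 1.00). The effects at 72 h and 24 h were not called different by limma (0.78 ± 0.55, 72 h minus 24 h, adjusted p = 1.00).

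Nifedipine cells read 434, 525 and 189.6 for Gpnmb at 72 h, against 287, 383 and 171 in their control cells. Here the groups overlapped, and the log2 change was 0.40 ± 0.39 (adjusted p = 0.679). Nifedipine's effect was −1.96 ± 0.55 on the log2 scale beside that of clonidine at 72 h (nifedipine minus clonidine, 95% interval −3.06 to −0.86), which was not called (adjusted p = 0.349) except with the block (adjusted p = 0.00792). The doses of both drugs differ, so the difference is one between these exposures. After the other compounds Gpnmb changed by −0.26 to 0.24 at 24 h and by −0.72 to 0.80 at 72 h, with 0 calls.

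Set directly against the exposed cells that share its controls, clonidine again stood out for Gpnmb. Clonidine cells were higher than the mean of aflatoxin B1 and Wy-14643 cells by 1.64 ± 0.33 on the log2 scale at 72 h (adjusted p = 0.00234) and by 1.55 ± 0.33 at 24 h (adjusted p = 0.0137), the 24 h value dropping to 0.84 without the D number 3 arrays (adjusted p = 0.668). This contrast uses no control array and carries the effects of the other compounds too. Of the 32 genes, 1 was higher and 0 lower in it at 24 h (0.177% and 0.161% of all probe sets), and 3 were higher and 1 lower at 72 h (1.17% and 1.3%). With the block 2 were higher at 24 h (1.57% of all), and 8 higher and 1 lower at 72 h (5.83% and 4.55%), Rragd among them both times, although the D numbers of aflatoxin B1 did not pair.

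Macrophages are a known source of Gpnmb in liver, and cultures of hepatocytes can hold some. Of 17 tested macrophage markers 2 were higher after 72 h of clonidine, with a mean log2 change of −0.22 and 0 called. Their summed signal was 682 to 1222 in clonidine cells and 901 to 1422 in control cells. At 24 h 5 of 17 were higher (mean −0.30), and the sum was 849.6 to 1401 in clonidine cells and 838 to 1749 in control cells. None of 18 measured macrophage markers was at the floor on all arrays of a group, and in RNA of whole cultures fewer cells of a type and less RNA per cell cannot be told apart.

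**Figure D2:**
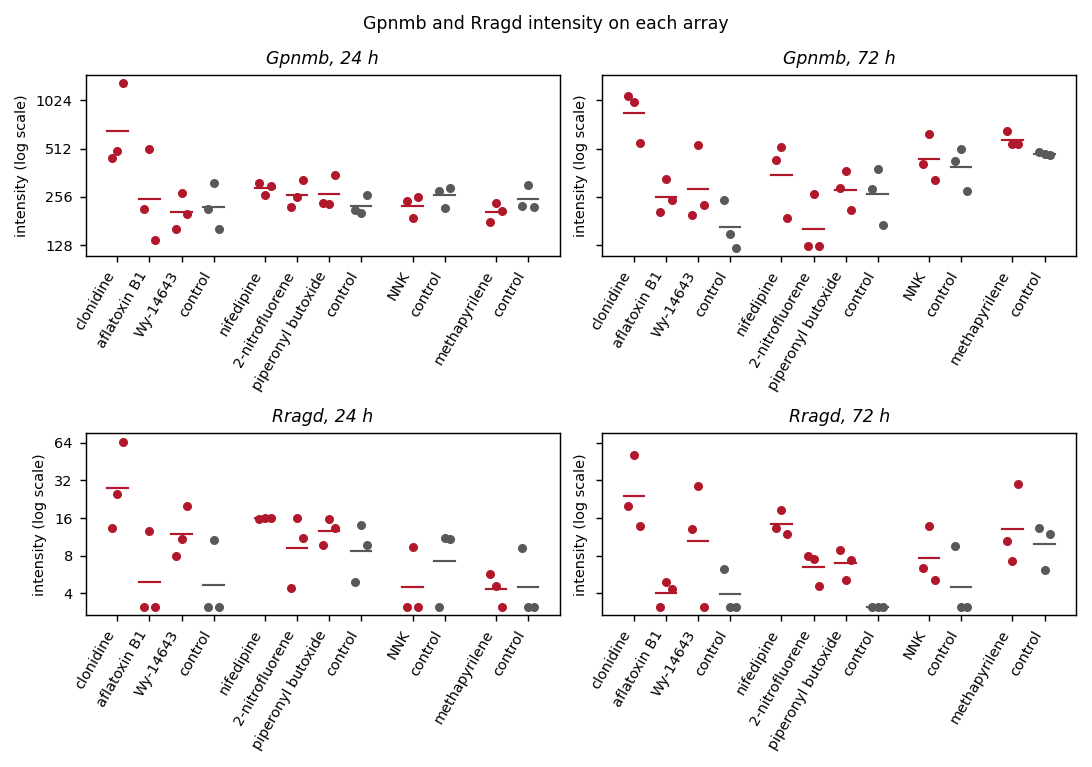
Intensity of Gpnmb and Rragd on every array at 24 h and 72 h (log scale, values raised to the floor of 3.117), by compound in red and its control in grey beside it, with 3 arrays per group and a line at their geometric mean. For Gpnmb at 72 h the 3 clonidine arrays (559 to 1094) lie above their control arrays (123 to 245), and for Rragd at 72 h the 3 nifedipine arrays (11.8 to 18.5) lie above control arrays that are all at the floor.

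Rragd encodes a Rag GTPase that helps to bring mTORC1 to the lysosome, and is itself switched on by TFEB relatives in mouse and human cells. It was dim, and on 19 of 72 arrays it was raised to the floor, so its changes are understated. After 72 h of nifedipine it read 13.4, 18.5 and 11.8, against 1.30, 0.324 and 2.90 in control cells. Every control reading was below the floor, and the estimate over the floor was 4.59-fold in nifedipine cells. Its adjusted p by limma was just above the threshold (0.0515), and 0.00353 with the block. All these readings lie under the brightness limit of 19.74, so the fold is uncertain. Against the same control cells the estimates were 2.08-fold for 2-nitrofluorene (adjusted p = 0.759) and 2.23-fold for piperonyl butoxide (adjusted p = 1.00).

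Clonidine cells read 20.1, 50.7 and 13.9 for Rragd at 72 h, against 6.30, 1.31 and 1.80 in control cells, where 2 of the 3 readings are below the floor. No arrays overlapped. The log2 change was 2.62 ± 0.66. At 24 h the readings were 13.3, 25.1 and 65.4 after clonidine and 2.38, 10.6 and 2.11 in control cells, a log2 change of 2.57 ± 0.66. These are the groups through which Rragd passed the limit on dim probe sets, so no test of them is given. Without the D number 3 arrays the 24 h value was 1.67. With nifedipine at 24 h it was 0.87 ± 0.66 (adjusted p = 0.830), and over the other 12 comparisons it ran between −0.68 and 1.42 with 0 calls.

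Npc2 encodes the soluble protein that hands cholesterol to the NPC1 transporter inside the lysosome. After 24 h of aflatoxin B1 it read 1833, 1604 and 1691, against 870.3, 993 and 750.1 in control cells. Exposed arrays were all above control arrays, and Npc2 rose by 0.98 ± 0.19 on the log2 scale (adjusted p = 0.000458). At 72 h it read 1466, 2374 and 1566 in exposed cells and 1046, 737 and 1185 in control cells, again without overlap, and rose by 0.86 ± 0.19 (adjusted p = 0.00194). The 72 h call was lost without aflatoxin B1 replicate 2 (0.64) or control replicate 2 (0.66), and the changes were 0.79 and 0.74, uncalled, without the high actin arrays, on the 1 aflatoxin B1 array that this leaves per time. NNK, another of the genotoxic carcinogens, gave readings of 1396, 1769 and 1202 at 72 h, against 1003, 1050.3 and 818 in its own control cells. That change of 0.59 ± 0.19 was called only with the block (adjusted p = 0.0653 without it, 0.0101 with it). Under Wy-14643 at 72 h Npc2 changed by 0.47 ± 0.19 (adjusted p = 0.120, with the block 0.0302).

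Scarb2, also known as LIMP-2, is a membrane protein that carries glucocerebrosidase to the lysosome. It read 436, 1030.5 and 403 after 72 h of Wy-14643 (which activates PPARα, a nuclear receptor for fatty acids), against 193, 158 and 139.7 in control cells. Replicate 2 was the highest, every exposed array was above every control array, and Scarb2 rose 3.49-fold, by 1.80 ± 0.25 on the log2 scale (adjusted p = 2.63e-06). It stayed called with each array left out (1.37 to 2.05), without the D number 3 arrays (1.94) and with this set's arrays alone (adjusted p = 0.0346). At 24 h the readings were 328, 299 and 309.6 after Wy-14643 and 269, 256 and 123 in control cells, a change of 0.62 ± 0.25 (adjusted p = 0.349, with the block 0.0475, and 0.26 without the D number 3 arrays).

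Scarb2 lay above 0 in all 16 comparisons, from 0.07 to 1.80, of which those with the same control are not independent. Exposed arrays were all above control arrays for it at 24 h in 6 of the 8 compounds: nifedipine, NNK, 2-nitrofluorene, Wy-14643, piperonyl butoxide and methapyrilene. 2-Nitrofluorene at 24 h gave 0.73 ± 0.25 (adjusted p = 0.165, with the block 0.00946) and piperonyl butoxide 0.73 ± 0.25 (0.743, with the block 0.0472). NNK at 72 h gave 0.67 ± 0.25 (0.141, with the block 0.0124). Clonidine cells were lower than the mean of Wy-14643 and aflatoxin B1 cells at 72 h (−0.78 ± 0.22 on the log2 scale, adjusted p = 0.0367), a contrast that holds the rise after Wy-14643.

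The structural membrane proteins moved little. Lamp1, with its 5 E-boxes, and Lamp2 stayed between −0.24 and 0.24 in the 16 comparisons, and Mcoln1, the lysosomal calcium channel, between −0.20 and 0.37, with 0 calls among them. After clonidine Lamp1 changed by 0.14 ± 0.17 at 24 h and 0.18 ± 0.17 at 72 h, and after nifedipine by 0.20 ± 0.17 and 0.12 ± 0.17.

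**Figure D3:**
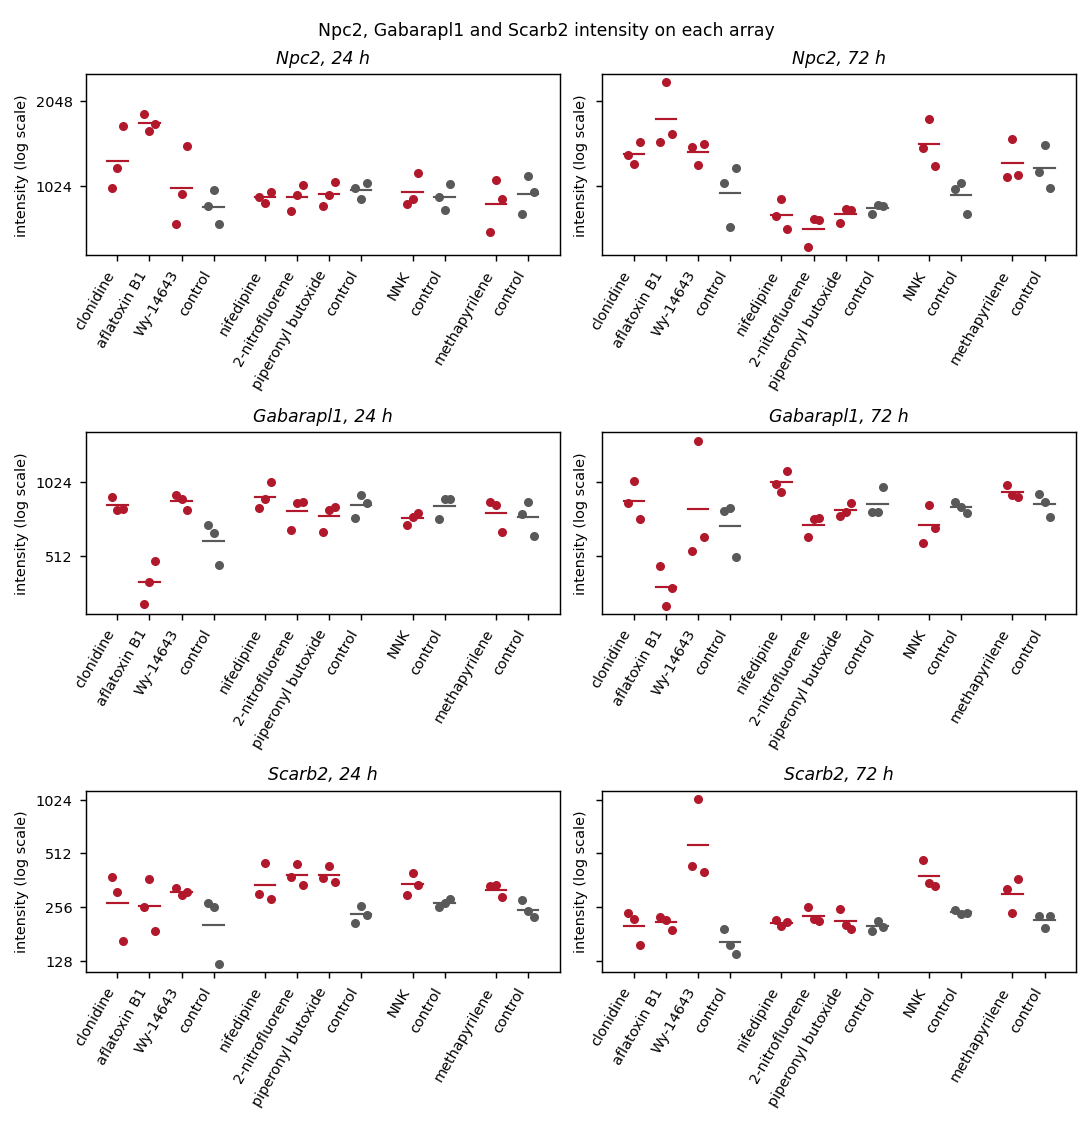
Intensity of Npc2, Gabarapl1 and Scarb2 on every array at 24 h and 72 h (log scale), compounds in red and the control of each set in grey beside them, with 3 arrays per group and a line at their geometric mean. Aflatoxin B1 arrays are above their controls for Npc2 at both times and below them for Gabarapl1 at 72 h (324 to 468 against 507 to 802), and Wy-14643 arrays are above them for Scarb2 at 72 h (403 to 1030.5 against 139.7 to 193).

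Among the proteases, Ctsc encodes the dipeptidyl peptidase that activates serine proteases of immune cells. On its brightest probe set it was at or under its control in nearly all comparisons (−0.66 to 0.01). A second probe set, nearly as bright, was above its control in some, as after 72 h of NNK (mean 1433 against 1274), and below it in others. After 24 h of 2-nitrofluorene the brightest read 1069.6, 639 and 927, against 1380.2, 1259 and 1430.1 in control cells. All exposed arrays were below all control arrays, and it fell by 0.66 ± 0.16 on the log2 scale (adjusted p = 0.0189). The second probe set of Ctsc changed by only −0.10 (adjusted p = 0.968). The call of the brightest was lost without 2-nitrofluorene replicate 2 (−0.44), control replicate 1 or control replicate 3. With nifedipine at 72 h Ctsc read 923, 939 and 949, against 1308, 1388 and 1314 in the control cells it shares with 2-nitrofluorene. This change of −0.51 ± 0.16 had an adjusted p of 0.0621, and of 0.000703 with the block, while the second probe set went the other way (0.07, adjusted p = 0.951). Macrophage markers lay lower in the same cells: their mean log2 change was −0.60 after 24 h of 2-nitrofluorene, with 0 of 17 higher, and −1.46 after 72 h of nifedipine, with 1 of 17 higher and 3 called lower. Their summed signal was 792 to 1371 after 24 h of 2-nitrofluorene and 1152 to 1988 in control cells, and 546 to 1274 after 72 h of nifedipine and 983 to 2225 in control cells. The part of such cells in the Ctsc values was not tested.

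Tpp1, a tripeptidyl peptidase, read 686, 727 and 542 after 72 h of aflatoxin B1, against 418, 437 and 465 in control cells. Without overlap between groups it rose by 0.56 ± 0.14 (adjusted p = 0.0105). At 24 h it read 637, 835 and 531 in aflatoxin B1 cells and 484, 593 and 357 in control cells, where the groups overlapped, and it rose by 0.49 ± 0.14 (adjusted p = 0.0402), which became 0.44 (adjusted p = 0.0645) without the D number 3 arrays. The 24 h call was lost without aflatoxin B1 replicate 1 (0.51) or 2 (0.31) or control replicate 1 (0.51) or 3 (0.29), and that at 72 h without aflatoxin B1 replicate 2 (0.47) or control replicate 1 (0.52) or 2 (0.55). NNK at 72 h gave 0.37 ± 0.14 (adjusted p = 0.148, with the block 0.0235), and nifedipine at 72 h 0.32 ± 0.14 (0.220, with the block 0.0498).

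Ctsl, the cysteine protease cathepsin L, read 4872, 5481 and 5305 after 24 h of aflatoxin B1 and 4684, 4782 and 2838 in control cells, and was called higher by 0.39 ± 0.10 (adjusted p = 0.0215), with 0.13 on a second probe set (adjusted p = 0.819). Control replicate 3 was far below the other control arrays. Without it the change was 0.14 and without all D number 3 arrays 0.13 (adjusted p = 0.537). Ctsd, the aspartic protease cathepsin D, shows the same array: after 24 h of clonidine it read 776, 811 and 773, against 727, 704 and 214 in control cells, a change of 0.72 ± 0.28 (adjusted p = 0.537) that was 0.15 without D number 3. At 72 h of nifedipine Ctsd changed by 0.49 ± 0.28 (adjusted p = 0.387), and all exposed arrays were above all control arrays.

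Other proteases passed only with the block. Ctsz, a carboxypeptidase, read 300.5, 225 and 236 after 72 h of nifedipine, against 199.8, 148 and 173 in control cells, a change of 0.55 ± 0.25 (adjusted p = 0.226, with the block 0.0128). Ctsh, an aminopeptidase, changed by −0.41 ± 0.19 after 24 h of nifedipine (with the block 0.0468) and by −0.44 ± 0.19 after 24 h of 2-nitrofluorene (0.0213), with exposed arrays below control arrays in both. Lgmn, an asparaginyl endopeptidase, changed by −0.60 ± 0.31 after 72 h of 2-nitrofluorene (0.00573), and Ctsa, the partner of the sialidase Neu1, by 0.51 ± 0.25 after 72 h of Wy-14643 (0.0393). Ctsc passed with the block after 2-nitrofluorene at 72 h (−0.44 ± 0.16, 0.00712) and after Wy-14643 at 24 h and 72 h (−0.40 ± 0.16 and −0.38 ± 0.16, 0.0279 and 0.00861). Its second probe set gave −0.20 after 2-nitrofluorene at 72 h, and after Wy-14643 0.16 at 24 h, the other way, and −0.12 at 72 h, with 0 of these called with or without the block. The groups overlapped for Lgmn, Ctsa and Ctsc after Wy-14643 at 24 h. Ctsb, cathepsin B, stayed between −0.13 and 0.30 in all 16 comparisons.

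Of the other hydrolases none passed against its own control. Neu1, which trims sialic acid from glycoproteins, read 289, 280.2 and 255 after 72 h of nifedipine, against 167, 149 and 191 in control cells. These groups did not overlap, and the change was 0.71 ± 0.34 (adjusted p = 0.270). Cells of the compounds that share these controls read 107, 129 and 101 after 2-nitrofluorene and 161, 149 and 171 after piperonyl butoxide. Set against their mean, nifedipine cells were higher by 1.04 ± 0.29 (adjusted p = 0.0299), and a second probe set gave 0.85 (adjusted p = 0.0118). In this contrast 2 of the 32 genes, Neu1 and Sqstm1, were higher and 0 lower at 72 h (1.64% and 2.34% of all probe sets), or 3 higher with the block (5.88%), the third being Gabarapl1, and 0 and 0 at 24 h (0.532% and 1.22%), where 1 had an unadjusted p under 0.05. Clonidine gave 0.65 ± 0.34 and 0.60 ± 0.34 for Neu1 at 24 h and 72 h (adjusted p = 0.768 and 1.00). Hexa, a subunit of β-hexosaminidase, read 814, 933 and 621 after 72 h of Wy-14643 and 565, 506 and 555 in control cells, without overlap, a change of 0.52 ± 0.19 (adjusted p = 0.0752, with the block 0.000281). Gla, Glb1, Gusb, Ppt1 and Psap, which cleave or help to cleave glycolipids, glycans and lipid-modified proteins, ran between −0.48 and 0.45.

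The proton pump was represented by 4 subunits. Atp6v1a, the catalytic subunit, read 563, 493 and 682 after 24 h of aflatoxin B1, against 349, 382 and 363 in control cells. At 72 h it read 605, 795 and 559 in exposed cells and 488, 415 and 491 in control cells. Groups were apart at both times, and Atp6v1a rose by 0.66 ± 0.12 (adjusted p = 0.000177) and 0.48 ± 0.12 (adjusted p = 0.00738). On the 1 aflatoxin B1 array per time that was not high in actin the changes were 0.43 and 0.43 (adjusted p = 0.102 and 0.0939), and the 72 h call was lost without aflatoxin B1 replicate 2 (0.33) or control replicate 2 (0.40). NNK at 72 h gave readings of 681, 625 and 574, against 495, 459.8 and 496 in its control cells, a change of 0.37 ± 0.12 (adjusted p = 0.0664, with the block 0.0149). Clonidine and nifedipine gave 0.18 and 0.03 at 24 h and 0.00 and 0.18 at 72 h for it. A second probe set of Atp6v1a passed without the block in none of these comparisons. After 24 h of aflatoxin B1 it read 219, 255 and 214, against 184, 158 and 126 in control cells. At 72 h it read 311, 263 and 171, against 213, 201 and 112, with overlap, and its groups overlapped after 72 h of NNK too. Atp6v1b2 changed by 0.43 ± 0.16 after 72 h of clonidine (adjusted p = 0.770) and by 0.46 ± 0.16 after 24 h of 2-nitrofluorene (0.159, with the block 0.0455). Atp6v0d1 and Atp6v1h, a membrane sector and a regulatory subunit, ran between −0.47 and 0.43.

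Sqstm1, or p62, ties cargo to the autophagosome and is broken down with it, and its gene also answers oxidative stress. After 72 h of nifedipine it read 5201, 4565 and 3887, against 3309, 2943 and 3142 in control cells. No arrays overlapped, and the change of 0.53 ± 0.17 had an adjusted p of 0.0664, or 0.00825 with the block. Against the mean of 2-nitrofluorene and piperonyl butoxide cells nifedipine cells were higher by 0.51 ± 0.15 (adjusted p = 0.0327) and, on a second probe set, by 1.00 (adjusted p = 0.0277). Clonidine cells read 4540.5, 4405 and 3759.9 at 72 h, against 3418, 4109 and 2583 in control cells, with overlap, a change of 0.35 ± 0.17 (adjusted p = 1.00). They were higher by 0.64 ± 0.15 than the mean of Wy-14643 and aflatoxin B1 cells (adjusted p = 0.00676), of which aflatoxin B1 lay below its control at −0.44 ± 0.17 (adjusted p = 0.145). On that second probe set nifedipine cells read 1652, 1679 and 1730 at 72 h, against 898, 891 and 944 in control cells, without overlap. At 24 h it read 1420, 1555 and 1463 after nifedipine and 763, 915 and 1108 in control cells, again without overlap. Clonidine cells read 976, 923 and 722 on it at 72 h, against 490, 756 and 428, with overlap. Both drugs stood above the compounds beside them for Sqstm1 at 72 h, while neither passed against its own control on either probe set without the block.

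Gabarapl1 encodes one of the small proteins that are tied to the autophagosome membrane. After 72 h of aflatoxin B1 it read 468, 324 and 381, against 783, 802 and 507 in control cells. Every exposed array was below every control array, and Gabarapl1 fell by 0.82 ± 0.21 on the log2 scale (adjusted p = 0.00923). The call was lost without aflatoxin B1 replicate 2 (−0.69) or control replicate 1 (−0.72) or 2 (−0.71), and the 1 aflatoxin B1 array that was not high in actin gave −0.76 (adjusted p = 0.176). At 24 h its change was −0.56 ± 0.21 (adjusted p = 0.151), or −0.86 (adjusted p = 0.0257) without the D number 3 arrays. Clonidine cells were higher than the mean of aflatoxin B1 and Wy-14643 cells at 72 h by 0.63 ± 0.18 (adjusted p = 0.0416). Against their own control they changed by 0.33 ± 0.21 (adjusted p = 1.00). A second probe set of Gabarapl1 read 202, 114 and 212 after 72 h of aflatoxin B1, against 302, 247 and 242 in control cells. Its groups did not overlap, and it was not called without the block. After 72 h of clonidine this probe set read 438, 457 and 390, against the same control cells, also without overlap and uncalled without the block. At 24 h it read 499, 306 and 472 after clonidine and 323, 188 and 262 in control cells, with overlap.

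Of the genes that build the autophagosome, Becn1, Atg5 and Atg7, none passed on its brightest probe set. A second probe set of Atg7 fell by 0.78 after 72 h of aflatoxin B1 (adjusted p = 0.0405), while the brightest changed by −0.28 ± 0.29 (adjusted p = 0.682). Becn1 stayed between −0.08 and 0.41, and Atg5 between −0.37 and 0.11.

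Beside the rises after aflatoxin B1, 15 of 17 macrophage markers were higher at 24 h and 16 of 17 at 72 h, with mean log2 changes of 0.68 and 0.87 and 0 called. Their summed signal was 1575 to 2726 in aflatoxin B1 cells at 24 h and 838 to 1749 in control cells, and 1853 to 2339 at 72 h, against 901 to 1422 in control cells. Of 9 tested markers of stellate cells 7 were higher at 24 h and 8 at 72 h (mean 0.26 and 0.63, 0 called), with sums of 339 to 1284 in aflatoxin B1 cells and 314 to 982 in control cells at 24 h, and of 603 to 1877 and 359 to 1286 at 72 h. Endothelial markers were higher for 5 of 6 at 24 h and 3 of 6 at 72 h, and bile duct markers for 3 of 4 and 2 of 4. Hepatocyte markers were higher for 10 of 14 at 24 h and 4 of 14 at 72 h, where 1 was called lower (mean 0.06 and −0.28). After NNK at 72 h, where Npc2, Atp6v1a, Tpp1 and Scarb2 passed with the block, 9 of 17 were higher and the mean was 0.09, with sums of 1058 to 2411 in NNK cells and 998 to 2437 in control cells. After Wy-14643 at 72 h, beside the values of Scarb2, Hexa, Ctsa and Npc2, 1 of 17 macrophage markers was higher and 5 were called lower (mean −1.39), and 1 of 14 hepatocyte markers was higher and 7 were called lower (mean −0.70). The summed hepatocyte signal was 33067 to 41857 in Wy-14643 cells and 48606 to 58055 in control cells. The part of such cells in the lysosomal values was not tested.

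**Figure D4:**
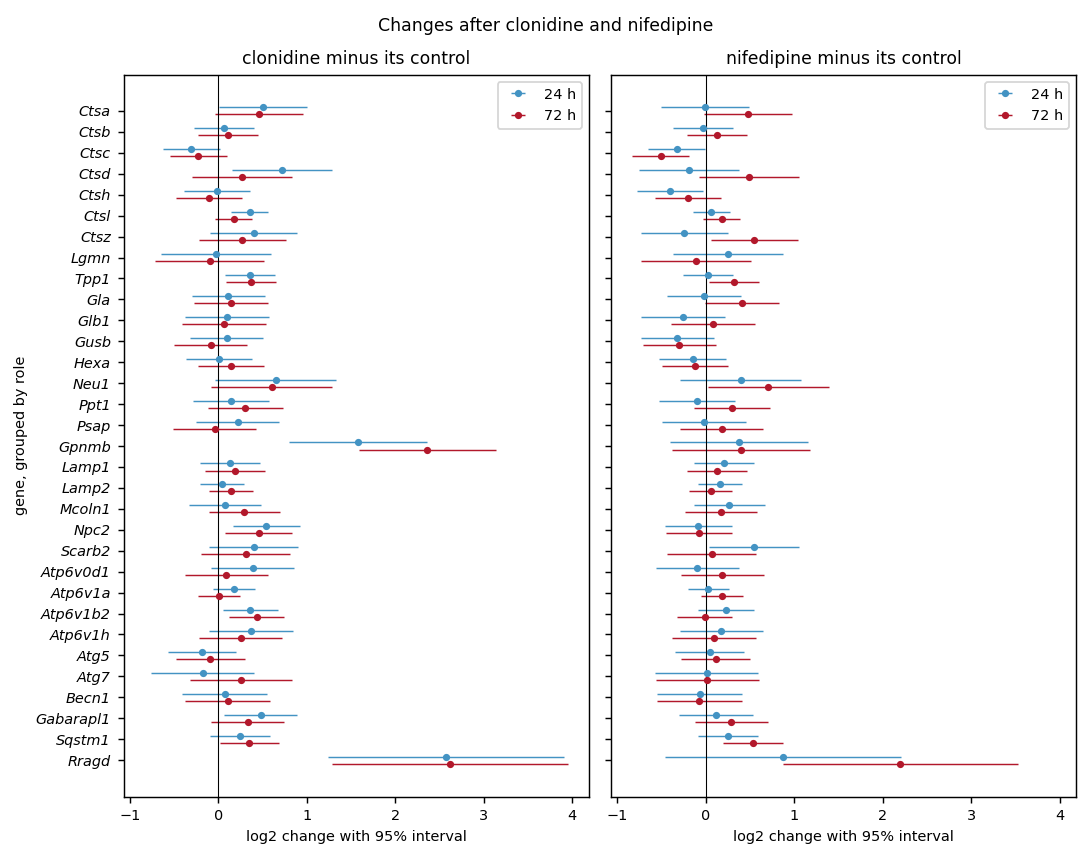
Log2 change with its 95% interval for 32 genes after clonidine (left) and nifedipine (right) against their own controls, at 24 h in blue and 72 h in red, with 3 arrays per group. The points of Gpnmb and Rragd lie furthest to the right for clonidine (2.36 and 2.62 at 72 h; Rragd was tested only through its clonidine groups), and that of Rragd for nifedipine (2.20 at 72 h), while the other genes lie closer to 0.

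A wider list of 103 lysosome, autophagy and nutrient sensing genes outside the 35, of which 88 were tested, gives the neighbours. Each call was repeated with each of the 6 arrays of its comparison left out, and the number of these fits that kept it is given. After 72 h of clonidine 1 rose and 0 fell (0.0332% and 0.0% of all probe sets), or 4 and 0 with the block (0.404% rising). The riser was Fnip1, a partner of folliculin in Rag signalling (0.99 ± 0.19, adjusted p = 0.0113, kept in 3 of 6). At 24 h 0 rose and 0 fell (0.0111% and 0.00554%), or 3 and 1 with the block (0.515% and 0.299%), and 16 had an unadjusted p under 0.05.

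Nifedipine at 72 h gave 5 rises and 2 falls in the wider list (1.35% and 1.83% of all), or 10 and 6 with the block (4.95% and 10.2%). Higher were Bnip3, a receptor of mitochondrial autophagy (1.53 ± 0.31, kept in 6 of 6), and Cln3, a lysosomal membrane protein (1.44 ± 0.37, kept in 2 of 6). Lower were Ctss, a cathepsin of antigen presenting cells (−2.15 ± 0.53, kept in 3 of 6), and Wipi1, which binds the growing autophagosome (−0.96 ± 0.23, kept in 4 of 6). At 24 h there were 1 rise and 1 fall (0.271% and 0.188%), or 3 and 2 with the block (1.68% and 2.86%). The related receptor gene Bnip3l rose (0.82 ± 0.16, adjusted p = 0.00614, kept in 4 of 6) and the activator gene Gm2a fell by 0.65 ± 0.16 (kept in 1 of 6).

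Aflatoxin B1 gave 4 rises and 2 falls in the wider list at 24 h (1.8% and 1.53% of all), and 4 and 0 at 72 h (2.78% and 2.13%). The proton pump gene Atp6v1d rose by 1.39 ± 0.20 and 1.24 ± 0.20 and Wipi1 by 1.07 ± 0.23 and 1.31 ± 0.23, each kept in 6 of 6. Atg10 (−0.98 ± 0.27) and Vps18 (−0.84 ± 0.22) were lower at 24 h, both kept in 3 of 6. Gnptab (1.01 ± 0.31, kept in 2 of 6) and Vps11 (0.73 ± 0.17, kept in 3 of 6) were higher at 72 h.

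NNK gave 1 rise and 1 fall in the wider list at 24 h (0.421% and 0.499% of all), or 2 and 4 with the block (1.94% and 2.33%): Atp6v1d rose by 0.80 ± 0.20 and Uvrag fell by 0.52 ± 0.13, both kept in 1 of 6. At 72 h it gave 3 and 1 (1.67% and 1.65%), or 13 and 4 with the block (5.65% and 7.35%). Atp6v1d (1.01 ± 0.20) and Cln3 (1.98 ± 0.37) were higher and kept in 6 of 6, while Atp6v0b (0.66 ± 0.18), higher, and Optn (−0.68 ± 0.19), lower, were kept in 1 of 6.

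Wy-14643 at 72 h gave 5 rises and 2 falls (2.82% and 4.49% of all), or 13 and 10 with the block (8.47% and 12.7%). Rab7a, which directs fusion with the lysosome (−1.21 ± 0.24, kept in 6 of 6), and Ctss (−1.96 ± 0.53, kept in 4 of 6) were lower. Fnip1 (0.81 ± 0.19, kept in 5 of 6) and Bnip3 (0.97 ± 0.31, kept in 1 of 6) were higher. Atp6v1d, which rose after aflatoxin B1 and NNK, was also higher here (0.71 ± 0.20, kept in 4 of 6). So were Lipa (0.64 ± 0.19, kept in 3 of 6) and Gaa (0.55 ± 0.17, kept in 2 of 6). At 24 h it gave 0 and 0 (0.0443% and 0.0%), or 4 and 4 with the block (2.02% and 1.96%), and 16 unadjusted p-values under 0.05. 2-Nitrofluorene raised 0 and lowered 1 at each time (0.792% and 0.338% of all at 24 h, 0.698% and 0.111% at 72 h), or 2 and 3 at 24 h (3.04% and 4.21%) and 2 and 1 at 72 h (2.52% and 2.55%) with the block. Rab7a fell by 1.00 ± 0.24 at 24 h and Fnip2 by 0.65 ± 0.17 at 72 h, both kept in 1 of 6. Piperonyl butoxide and methapyrilene gave 0 calls by limma at both times with and without the block, and 3 and 0, and 1 and 2, unadjusted p-values under 0.05.

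The effects of the 8 compounds at 72 h and 24 h were also set against each other. In this difference 0 of the 32 genes passed for any compound, where 0.105% of all probe sets were higher and 0.0111% lower for nifedipine, 0.0222% and 0.00554% for NNK, 0.00554% and 0.0% for 2-nitrofluorene and 0.0% either way for the others, and between 0 and 2 genes had an unadjusted p under 0.05. With the block Scarb2 and Hexa passed upward for Wy-14643 (0.111% of all) and Ctsz for nifedipine (1.05%). The difference of nifedipine's and clonidine's effects gave 0 and 0 at both times (0.0% and 0.0% of all at 24 h, 0.0111% and 0.0111% at 72 h), with 3 and 2 unadjusted p-values under 0.05, or 1 negative gene at 72 h with the block, Gpnmb (1.53% of all).

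Without a compound the genes also moved with time in culture. In control cells of the NNK, methapyrilene and 2-nitrofluorene sets 4 of 32 genes were higher at 72 h than at 24 h (13.2% of all probe sets) and 3 lower (8.62%). Lgmn rose by 0.61 ± 0.18 (adjusted p = 0.00998), Gpnmb by 0.59 ± 0.22 (0.0495), the β-glucuronidase gene Gusb by 0.50 ± 0.12 (0.00152) and Atp6v1b2 by 0.35 ± 0.09 (0.00336). Lamp1 fell by 0.33 ± 0.10, Atg5 by 0.32 ± 0.11 and Tpp1 by 0.31 ± 0.08. These counts are near the shares of all probe sets, and no block was fitted, since the block is the D number within a time. The NNK and 2-nitrofluorene sets share their D numbers, and every D number recurs at both times. The fit took all these arrays as independent, so its SEs and calls do not allow for this. In the wider list 12 of 88 rose and 10 fell, with Cln3 (−1.25 ± 0.22), the macrophage gene Cd68 (−1.16 ± 0.37) and Tfeb (−0.56 ± 0.14) lower and the acid ceramidase gene Asah1 (0.82 ± 0.26) higher. In control cells of the clonidine, aflatoxin B1 and Wy-14643 set, whose D number 3 arrays run against their time labels, 0 were higher and 0 lower (0.0% and 0.0% of all), and 1 had an unadjusted p under 0.05. Their Gpnmb readings were 245, 150.2 and 123 at 72 h and 216, 311 and 162 at 24 h.

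**Figure D5:**
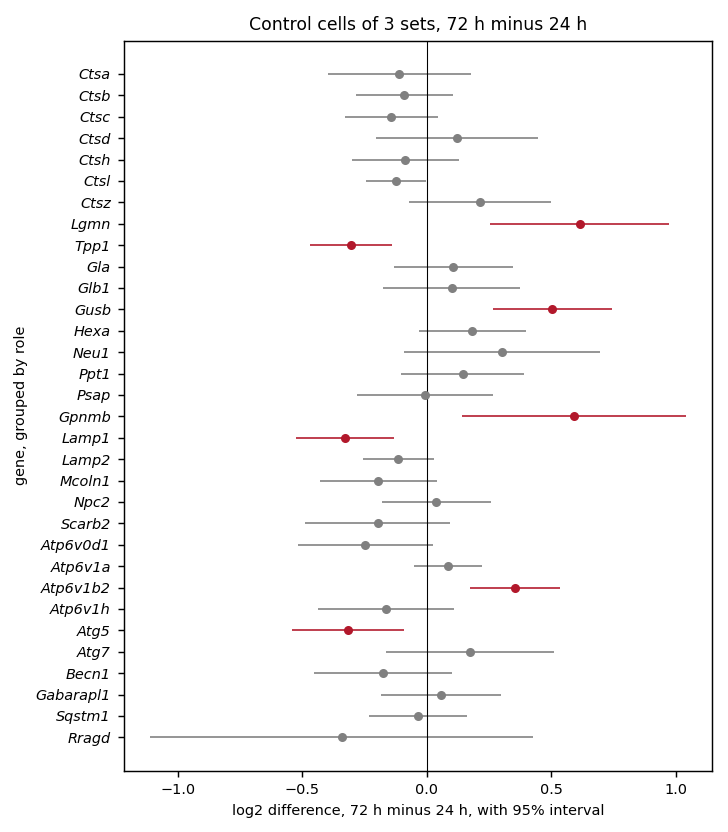
Log2 difference between 72 h and 24 h in control cells of 3 sets (3 arrays per set and time), with 95% intervals, for 32 genes grouped by role. Red marks the 7 genes that passed limma's test (Lgmn, Gpnmb, Gusb and Atp6v1b2 higher at 72 h, Lamp1, Atg5 and Tpp1 lower), and grey the others.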

How the data were processed

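Total RNA was hybridised to rat arrays, 1 sample per array. Per the submitters' processing notes the authors made the deposited intensity values with MAS5, which gives 1 linear signal per probe set; no source used here gives its version or settings. Precision is limited by having 3 arrays per group. Groups and replicate numbers came from titles. Per the labels' protocols the experiments of a compound were independent. In the test on all arrays, p-values measure the spread between arrays of a group, pooled over all 24 groups. The SE of a comparison therefore does not come from its own arrays alone.

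A floor of 3.117 (20th percentile of the table) was set under the values, which were then put on the log2 scale. Probe sets whose group mean reached the table median (19.74) in at least 1 group were kept, 18048 (58.0%). The test was limma (3.58.1, R 4.3.3) on group means, with 48 residual degrees of freedom and an intensity trend in eBayes. P-values were adjusted by Benjamini-Hochberg per comparison. Fold changes are on this floored scale. The script was tested on simulated data. Gene names came from the platform annotation, where 20826 probe sets have 1 symbol. A gene's tested probe set of highest mean represents it, and others are given where their call or direction matters.

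D numbers pair the arrays in 14 comparisons, as deviations of equal numbers correlated there (0.268 to 0.829). Both aflatoxin B1 comparisons had a pair below 0, so blocked values of those comparisons are given only among the alternatives. Alternatives were no filter, log2(value + 16), quantile normalization, no trend, the replicate block, only the set's arrays, arrays left out singly, by actin ratio (log2 above 1.5) or by D number 3.

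Named were every called gene, Gpnmb, Sqstm1, Ctsl, Ctsd, Lamp1, Atp6v1a, Gabarapl1 and Rragd, and up to 4 called genes of the wider list per comparison. Genes that passed only with the block, Neu1, the further wider-list genes of Wy-14643 at 72 h, and ranges of the rest were chosen after seeing values. The members, lists and tests were chosen with earlier results of these data known. Marker lists covered macrophages (20 genes), stellate cells (12), endothelium (10), bile duct (8) and hepatocytes (15).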

Additional observations from a re-analysis of the deposited data

Results flagged for a closer look

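All values here come from differences between 2 effects that passed limma's test with the replicate block and not without it. Scarb2 was raised more by Wy-14643 at 72 h than at 24 h, by 1.19 on the log2 scale (adjusted p = 0.0360 with the block, 0.534 without). Without the D number 3 arrays, whose time labels are in doubt, this was 1.68 (adjusted p = 0.00276, no block). Hexa changed more after Wy-14643 at 72 h than at 24 h too, by 0.64 (adjusted p = 0.0403 with the block, 0.705 without). Ctsz changed more after nifedipine at 72 h than at 24 h, by 0.79 (adjusted p = 0.0446 with the block, 0.587 without). For Gpnmb at 72 h nifedipine's effect minus clonidine's was −1.96 (adjusted p = 0.00792 with the block, 0.349 without), and both effects were taken against different controls. With 3 arrays per group no single array was tested as an outlier.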

How the results depend on the processing

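Counts of called genes among the 32 moved with the replicate block, the set and the arrays left out. With the block (and without it) they were 2 (0) for clonidine at 24 h and 2 (1) at 72 h, 1 (0) and 5 (0) for nifedipine, 2 (0) and 5 (1) for Wy-14643, 4 (1) and 2 (0) for 2-nitrofluorene, 4 (0) for NNK at 72 h and 1 (0) for piperonyl butoxide at 24 h. For aflatoxin B1, whose numbers did not pair, they were 8 (4) and 7 (4). In the contrasts the block gave 2 (1) and 9 (4) for clonidine against Wy-14643 and aflatoxin B1 cells at 24 h and 72 h, 2 (0) and 1 (0) for the 72 h minus 24 h effects of Wy-14643 and nifedipine, and 1 (0) for nifedipine against clonidine at 72 h. Rragd, tested only through its clonidine groups, is in the blocked clonidine counts at both times. It is also in both blocked counts of clonidine against Wy-14643 and aflatoxin B1 cells. The block left the other counts it was fitted for within 1.5 times; it was not fitted for the time contrasts of control cells, as it is the D number within a time. In the wider list of 88 the blocked counts for aflatoxin B1 were 9 rises and 2 falls at 24 h and 14 and 5 at 72 h. Blocked shares of all probe sets are not given for aflatoxin B1. These counts, and the 8 and 7 above, therefore cannot be set against them.

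With only the arrays of a set, 0 genes were called for clonidine at 72 h and for aflatoxin B1 at 24 h and 72 h, 4 and 1 for 2-nitrofluorene, 2 and 7 for nifedipine, 3 for NNK at 72 h and 1 for piperonyl butoxide at 24 h. Without the high actin arrays the counts were 4 and 1 for 2-nitrofluorene, 6 for nifedipine at 72 h, 1 and 4 for NNK and 6 for Wy-14643 at 72 h. For aflatoxin B1 that leaves 1 exposed array per time, and no count is given. Without the D number 3 arrays they were 3 for 2-nitrofluorene at 24 h, 6 for nifedipine at 72 h, 4 for NNK at 72 h, 3 for Wy-14643 at 72 h, 0 for clonidine against Wy-14643 and aflatoxin B1 cells at 24 h and 1 for the 72 h minus 24 h effect of Wy-14643. Quantile normalization gave 2 for aflatoxin B1 at 24 h and 1 for nifedipine at 72 h, and leaving out the intensity trend 1 for nifedipine at 72 h. The shares of all probe sets called in these fits, and in those with single arrays left out, are not given. These counts therefore show only that calls moved with the setting. The cause was not tested.

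Leaving out 1 array at a time gave 2 to 4 genes for aflatoxin B1 at 24 h and 0 to 6 at 72 h, 0 to 1 for 2-nitrofluorene at 24 h (0 without exposed replicate 2 or control replicate 1 or 3), 0 to 3 for clonidine at 24 h (3 without control replicate 2), 0 to 1 for NNK at 72 h and for Wy-14643 at 24 h, and 1 to 4 for Wy-14643 at 72 h (4 without exposed replicate 3). It changed no count of the other compound comparisons. For the 148 named gene results no value that was called in either fit changed sign. Of 1911 alternative values 1840 kept their side of the threshold, 31 passed it and 40 lost it, and 118 that were uncalled both ways had the other sign. Dim genes such as Rragd are limited by the floor.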
